A study of Mus musculus with 34 samples.

Results

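The genes described here are the 10 core genes of hepatic de novo lipogenesis: the transcription factor genes Srebf1 and Mlxipl, and the enzyme and accessory genes Acly, Acaca, Acacb, Fasn, Elovl6, Scd1, Me1 and Thrsp. They were taken by name, or for Mlxipl by the identifier ENSMUSG00000005373, from the 78298 genes of the table of counts. No cutoff on measured values was used, but earlier results of these data were known when the genes were chosen. Shares over all genes therefore stand beside the counts of members as a description only. All 10 passed the filter on low counts, which left 14980 genes to test.

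De novo lipogenesis turns surplus carbohydrate into fatty acids, and the hepatocyte is a main site of it. Glycolysis and the mitochondrial citrate shuttle deliver citrate to the cytosol, where it is split to acetyl-CoA, carboxylated to malonyl-CoA and polymerized to palmitate with NADPH as the reductant. Insulin drives the program through SREBP-1c, a product of Srebf1, and glucose drives it through ChREBP, the product of Mlxipl. In a liver that regenerates, hepatocytes accumulate lipid transiently before they divide.

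The livers came from male mice of 8 to 12 weeks on a C57/Bl6 background. WT mice carried the floxed Sirt1 alleles (exon 4) without Cre, and SIRT1intKO mice carried the same alleles with Cre recombinase under the Villin promoter, which is active in the intestinal epithelium. Thus Sirt1, which encodes a NAD-dependent deacetylase, was deleted in the gut and every liver measured here came from a mouse with floxed alleles. Mice were untreated (0 h) or underwent partial hepatectomy (PHx) of 70% of the liver and were sampled 6 h or 24 h later. The groups held 6 WT and 6 SIRT1intKO livers at 0 h, 6 and 5 at 6 h, and 4 and 7 at 24 h. The feeding state and the hour of day at sampling were not given in the sources used here. The 0 h mice were not operated, so surgery, anesthesia and food intake after it cannot be told apart from the loss of liver mass. A shift in hour of day between the times cannot be told apart from it either. Library names of the 0 h livers run in another number series than those of the operated livers, so a difference in handling between the series cannot be told apart from PHx either.

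Libraries held 14892122 to 23480492 expected counts. Sirt1 itself lay between 6.92 and 23.1 CPM, counts scaled to equal library size, in these livers, which says nothing about its deletion in the gut. Its largest difference between genotypes was at 24 h, with medians of 7.87 CPM in SIRT1intKO and 11.3 CPM in WT livers. This difference missed the threshold (edgeR log2 fold change -0.65, SE 0.22, adjusted p = 0.0726). Summed levels of 6 hepatocyte markers were 45733 to 99621 CPM. In WT livers the median sum was 84652 CPM at 0 h, 65560 CPM at 6 h and 54508.5 CPM at 24 h. In SIRT1intKO livers it was 86102, 70651 and 69836 CPM. At 24 h against 0 h, 3 of 6 were called lower in WT and 2 of 6 in SIRT1intKO livers (all genes, 7.4% and 11.1%). Of 6 sinusoidal endothelium markers, 4 and 3 were called lower and 0 and 1 higher. Of 6 Kupffer cell and macrophage markers, 4 and 1 were called lower and 1 and 1 higher. At 24 h, 5 of 5 tested neutrophil markers were called higher than at 0 h in SIRT1intKO livers (all genes, 11.9%). In WT livers 3 of 5 were called higher (8.32%). The neutrophil sum in WT replicates 1 to 4 at 24 h was 105, 88.2, 11.05 and 5.28 CPM, against at most 18.2 CPM at 0 h. In SIRT1intKO livers at 24 h its median was 86.6 CPM, with 944 CPM in replicate 2 and the lowest value, 18.54 CPM, in replicate 5. Of 6 cholangiocyte markers, 4 were called higher at 24 h in WT and 4 in SIRT1intKO livers (all genes, 8.32% and 11.9%). The sum of these markers separated the libraries at 24 h: it was 54.0, 64.7 and 78.9 CPM in SIRT1intKO replicate 5 and WT replicates 3 and 4, and 104 to 483 CPM in the other 8, against 36.7 to 62.0 CPM at 0 h. In WT livers at 24 h this sum was mostly Spp1 (mean 164 CPM) and Sox9 (49.9 CPM). Summed adipocyte markers reached 208 CPM after PHx, mostly Fabp4, against at most 14.7 CPM at 0 h. Of 3 tested, 3 were called higher at 6 h and at 24 h in SIRT1intKO livers (all genes, 7.86% and 11.9%) and 1 in WT livers (7.17% and 8.32%). The other 2 had log2 fold changes below 0 in WT livers at 24 h. Adipoq exceeded 1 CPM in 3 libraries (SIRT1intKO 6 h replicates 1 and 4 and 24 h replicate 3). Adipocytes express lipogenic genes too. Values without these 2 sets of libraries, both chosen after seeing the data, stand beside the results they change. Lymphocyte and exocrine pancreas markers summed to at most 4.52 CPM and 3.20 CPM.

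At 0 h, before any surgery, the 10 genes differed widely in level. Per kilobase of exon, the mean level in WT livers was highest for Scd1 (703 CPM per kb), followed by Thrsp (72.7), Mlxipl (66.2), Acly (30.1), Me1 (20.7), Srebf1 (17.4), Fasn (13.9), Elovl6 (6.26), Acacb (5.47) and Acaca (2.69). Acaca and Acacb encode the 2 acetyl-CoA carboxylases, and both stood at the low end of the program. No member passed the test between genotypes at 0 h or at 6 h, and the values are given first as responses to PHx.

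At 6 h after PHx, both transcription factor genes fell in both genotypes, Srebf1 to 28.5% of its 0 h level in WT and 34.7% in SIRT1intKO livers, and Mlxipl to 23.6% and 29.7%. In WT livers Acly and Fasn fell with them, while Acaca, Acacb, Elovl6, Scd1 and Me1 passed no test in either genotype. By 24 h the picture had moved: Acacb, Scd1 and Mlxipl were low in both genotypes, Srebf1 had risen again from 6 h in WT livers, and Acly and Fasn no longer differed from 0 h at an adjusted p under 0.05. A gene is "called" below where its adjusted p, by edgeR's quasi-likelihood test over all 14980 genes, was under 0.05 and its level changed more than 2-fold.

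**Figure D1:**
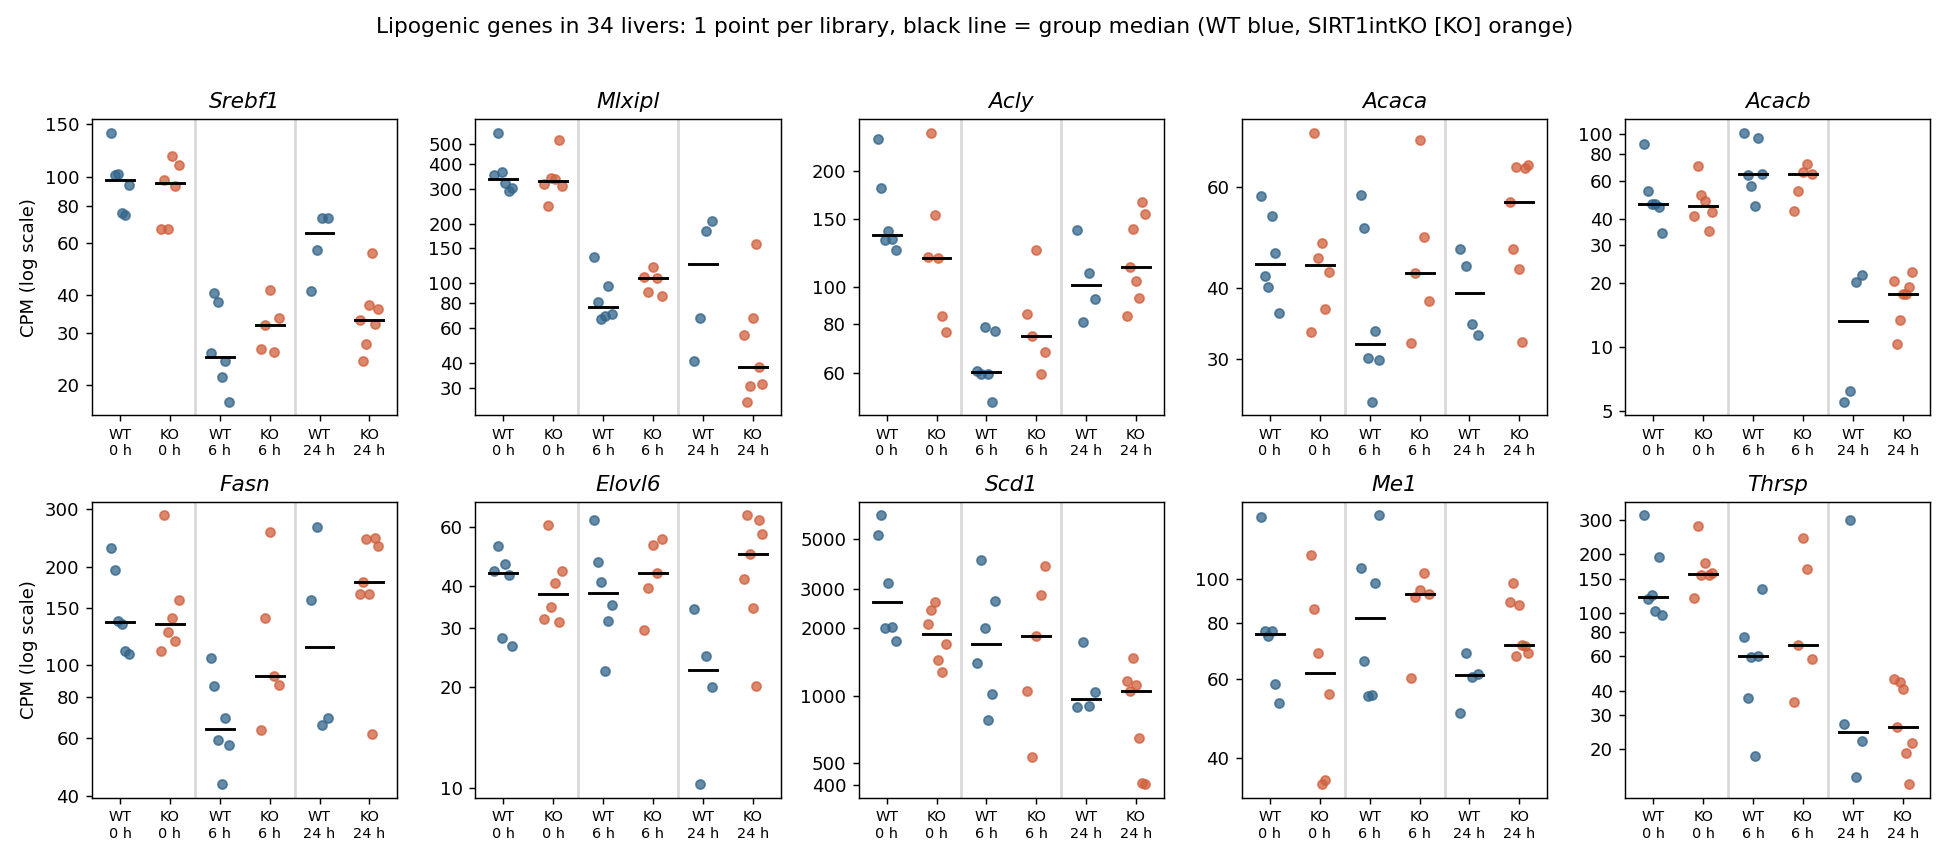
Level of each lipogenic gene (CPM, log scale) in the 34 livers, with 1 point per library, groups by genotype and hours after PHx, and black lines at group medians. Srebf1 and Mlxipl drop at 6 h in both genotypes, Acacb drops only between 6 h and 24 h, and 1 WT liver at 24 h holds 302 CPM of Thrsp.

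In counts, 4 of the 10 genes were called lower at 6 h than at 0 h in WT livers, beside 8.4% of all genes tested, and 2 of 10 in SIRT1intKO livers, beside 8.7%. At an adjusted p under 0.05 without the fold threshold, 4 of 10 fell in WT livers (all genes, 18.5%) and 3 of 10 in SIRT1intKO livers (17.6%). At 24 h, 3 of 10 were called lower than at 0 h in WT livers (all genes, 7.4%) and 5 of 10 in SIRT1intKO livers (11.1%), and without the fold threshold 5 of 10 fell in each genotype (14.6% and 24%). No member was called higher than at 0 h at either time. At 6 h, all livers lay below all 0 h livers for 4 members in WT and 2 in SIRT1intKO livers (all genes, 12.6% and 13%). For 24 h against 0 h there were 4 and 4 such members (9.89% and 10.9%), and for 24 h against 6 h 1 and 1 (3.83% and 5.01%). Srebf1 and Acly lay higher without overlap at 24 h than at 6 h in WT livers (all genes, 3.53%). The median log2 fold change of the 10 genes was -0.96 at 6 h and -0.74 at 24 h in WT livers and -0.15 and -0.62 in SIRT1intKO livers, against 0.01 to 0.04 for all genes tested. The 6 h and 24 h comparisons of a genotype share their 0 h livers. In whole liver, fewer cells of a type and less RNA per cell cannot be told apart.

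**Figure D2:**
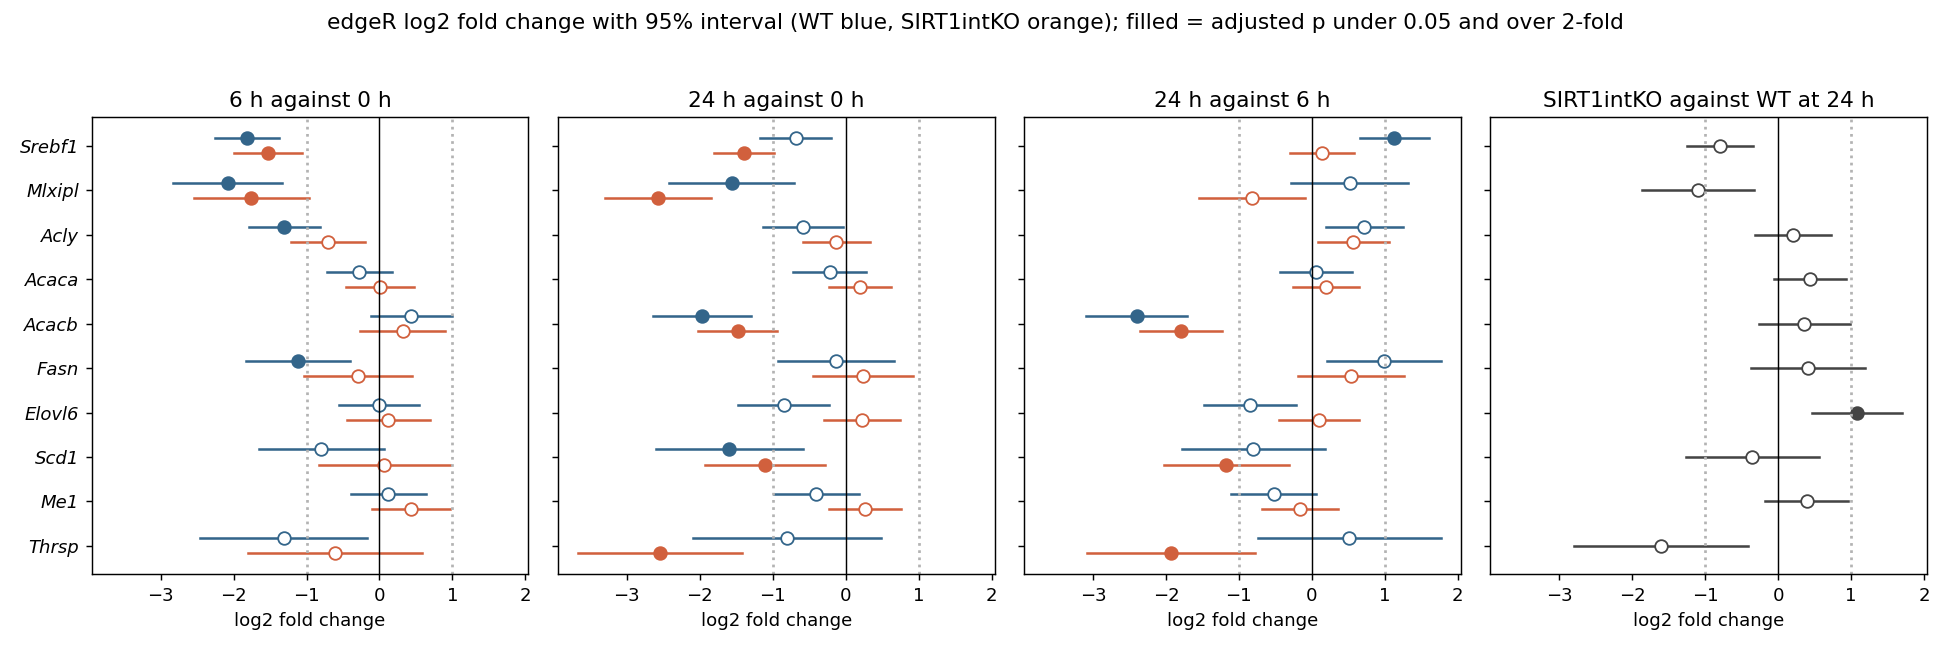
Log2 fold changes of the 10 genes with 95% intervals, for 6 h and 24 h against 0 h, 24 h against 6 h, and SIRT1intKO against WT at 24 h. Filled points are called: only Srebf1 in WT livers was called higher at 24 h than at 6 h, and only Elovl6 was called between genotypes.

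Promoters of both transcription factor genes and of Fasn, Acacb and Thrsp are shown here, as windows that hold 1 or more of the motifs marked in capitals and belong to genes called in at least 1 comparison. The sequences are the 250 bases before an annotated start, read from RefSeq's promoter table on build GRCm38.p6, and 9 of the 10 genes were matched there, with 13 starts. Capitals mark a sterol regulatory element searched as TCACNCCAC, an E-box searched as CACGTG and an NF-Y box searched as CCAAT, each on both strands. Srebf1 start 1, with 1 NF-Y box at position -166 from the start, also meets this rule and is not printed.
Srebf1, start 3, chr11:60210472-60210721, minus strand: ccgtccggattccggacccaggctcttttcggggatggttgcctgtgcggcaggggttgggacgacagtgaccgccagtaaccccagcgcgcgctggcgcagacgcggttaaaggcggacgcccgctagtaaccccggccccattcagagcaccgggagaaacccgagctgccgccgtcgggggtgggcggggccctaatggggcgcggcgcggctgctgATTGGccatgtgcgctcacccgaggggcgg
Mlxipl, start 2, chr5:135089640-135089889, plus strand: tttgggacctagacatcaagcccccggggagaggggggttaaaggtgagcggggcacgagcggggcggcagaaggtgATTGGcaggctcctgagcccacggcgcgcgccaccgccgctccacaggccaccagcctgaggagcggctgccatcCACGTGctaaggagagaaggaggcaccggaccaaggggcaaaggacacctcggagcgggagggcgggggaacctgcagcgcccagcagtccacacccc
Mlxipl, start 1, chr5:135106641-135106890, plus strand: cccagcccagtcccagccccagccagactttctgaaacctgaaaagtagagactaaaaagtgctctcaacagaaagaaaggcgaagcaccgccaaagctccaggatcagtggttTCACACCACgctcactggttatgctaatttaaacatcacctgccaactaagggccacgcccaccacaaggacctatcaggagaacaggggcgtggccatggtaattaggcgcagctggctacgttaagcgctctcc
Fasn, chr11:120824548-120824797, minus strand: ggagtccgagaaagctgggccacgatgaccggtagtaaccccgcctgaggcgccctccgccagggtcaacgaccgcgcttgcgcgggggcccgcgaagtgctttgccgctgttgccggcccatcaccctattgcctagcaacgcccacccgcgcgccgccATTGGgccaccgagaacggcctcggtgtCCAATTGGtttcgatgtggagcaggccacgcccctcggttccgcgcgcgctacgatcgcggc
Acacb, chr5:114165268-114165517, plus strand: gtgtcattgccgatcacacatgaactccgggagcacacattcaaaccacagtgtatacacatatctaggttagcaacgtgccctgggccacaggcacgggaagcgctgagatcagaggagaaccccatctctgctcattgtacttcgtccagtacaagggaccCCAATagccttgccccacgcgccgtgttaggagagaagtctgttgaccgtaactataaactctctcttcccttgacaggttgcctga
Thrsp, chr7:97417551-97417800, minus strand: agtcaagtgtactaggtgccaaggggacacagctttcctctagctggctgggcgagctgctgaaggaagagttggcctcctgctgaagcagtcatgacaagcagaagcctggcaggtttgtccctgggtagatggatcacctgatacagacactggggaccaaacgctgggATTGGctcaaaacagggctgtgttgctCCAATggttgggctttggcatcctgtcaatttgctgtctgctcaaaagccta

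NF-Y boxes were in 7 of the 13 windows, those of 6 members, beside 33.8% of all 32851 promoter windows of the same length. Fasn held 3 of them, 2 of which overlap as a palindrome that begins at position -62 from the start, and Thrsp held 2, at -79 and -52. The sterol element was found once, at -136 of Mlxipl start 1 (all windows, 1.05%), and the E-box once, at -98 of Mlxipl start 2 (all windows, 6.02%). GC boxes, searched as GGGCGG and not capitalized, were in 5 windows of 4 members (all windows, 32.7%). A match is a description of letters, and its absence from a window says nothing about binding.

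Srebf1 encodes SREBP-1, the membrane-bound factor that is cleaved to activate fatty acid synthesis genes. In WT livers its level was 74.3 to 141 CPM, median 97.8, at 0 h and 17.6 to 40.7 CPM, median 24.9, at 6 h. It measured 41.4, 56.8, 72.7 and 73.05 CPM at 24 h. Every WT liver at 6 h lay below every WT liver at 0 h and below every one at 24 h, and the 24 h livers lay below all 0 h livers. The fall at 6 h (log2 fold change -1.81, SE 0.22, adjusted p = 1.29e-07) was followed by a rise from 6 h to 24 h (log2 fold change 1.13, SE 0.23, adjusted p = 0.00124), one of 4.44% of genes called higher in that comparison, which still left it below 0 h (log2 fold change -0.69, SE 0.24, adjusted p = 0.0258). This last difference was under 2-fold, and it missed the threshold on adjusted p without WT 24 h replicate 1 (adjusted p = 0.131), WT 24 h replicate 2 (0.0796) or WT 0 h replicate 1 (0.0735).

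In SIRT1intKO livers Srebf1 measured 66.7 to 117 CPM, median 95.5, at 0 h, 25.8, 26.5, 31.8, 33.5 and 41.9 CPM at 6 h and 24.1 to 55.6 CPM, median 33.1, at 24 h. Both later groups lay entirely below the 0 h group and overlapped each other. The fall was -1.53 on the log2 scale at 6 h (SE 0.23, adjusted p = 5.53e-06) and -1.39 at 24 h (SE 0.20, adjusted p = 2.26e-06). From 6 h to 24 h the change was 0.14 (95% interval -0.30 to 0.57, adjusted p = 0.667).

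Mlxipl, whose product ChREBP senses glucose metabolites, was the member with the deepest fall at 6 h in both genotypes. WT livers held 293 to 572 CPM, median 335, at 0 h and 66.1 to 136 CPM, median 75.8, at 6 h. SIRT1intKO livers held 246 to 527 CPM, median 325, at 0 h and 86.3, 90.8, 107, 108 and 120.3 CPM at 6 h. The 6 h and 0 h values did not overlap in either genotype (log2 fold change -2.08, SE 0.37, adjusted p = 4.68e-05 in WT and log2 fold change -1.75, SE 0.39, adjusted p = 0.000669 in SIRT1intKO livers). At 24 h the SIRT1intKO livers held 25.5 to 159 CPM, median 38.1, all below the 0 h group (log2 fold change -2.57, SE 0.35, adjusted p = 9.62e-07). The 4 WT livers at 24 h, with 40.6, 67.1, 183 and 205 CPM, split into a low and a high pair, again all below 0 h (log2 fold change -1.56, SE 0.42, adjusted p = 0.00473). From 6 h to 24 h neither genotype passed the test for Mlxipl (WT 0.52, adjusted p = 0.395, and SIRT1intKO -0.82, adjusted p = 0.0839). Without SIRT1intKO 24 h replicate 5, which held 159 CPM, the second value became -1.32 with an adjusted p of 0.00147. Without the 3 livers with low cholangiocyte markers it was -1.27 (adjusted p = 0.000119), and the WT value was -0.67 (adjusted p = 0.112).

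Acly encodes ATP citrate lyase, which makes cytosolic acetyl-CoA. Its levels in WT livers were 125 to 242 CPM, median 137, at 0 h, 50.4 to 78.9 CPM, median 60.1, at 6 h and 81.4, 93.2, 109 and 140.4 CPM at 24 h. The 6 h group lay below all livers of both other times. The fall at 6 h was -1.31 (SE 0.24, adjusted p = 7.18e-05), and the return from 6 h to 24 h, 0.72, had an adjusted p of 0.0541, near enough to the threshold that 15 of the 34 fits without 1 library passed it. SIRT1intKO livers held 76.4 to 251 CPM, median 119, at 0 h, 59.3, 67.9, 74.7, 84.98 and 125 CPM at 6 h and 84.2 to 166 CPM, median 113, at 24 h, and these groups overlapped. Here the fall at 6 h was -0.70 (SE 0.25, adjusted p = 0.0259), a change of under 2-fold that missed the threshold on adjusted p without SIRT1intKO 0 h replicate 2 (-0.46, adjusted p = 0.11), without SIRT1intKO 6 h replicate 4 (0.0615) or replicate 5 (0.0526), and without the 3 libraries with Adipoq (0.122). At 24 h Acly differed from 0 h in neither genotype at the threshold (WT -0.58, adjusted p = 0.0883, and SIRT1intKO -0.13, adjusted p = 0.654).

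The 2 acetyl-CoA carboxylases behaved unlike each other. Acaca encodes the cytosolic form that supplies malonyl-CoA for synthesis, and it passed no test in any comparison, with group medians between 31.8 and 56.5 CPM. Acacb encodes the form at the mitochondrial surface, whose malonyl-CoA restrains fatty acid oxidation. In WT livers Acacb measured 34.05 to 89.1 CPM, median 46.8, at 0 h and 45.9 to 101 CPM, median 64.4, at 6 h. At 24 h it measured 5.53, 6.23, 20.2 and 21.9 CPM. In SIRT1intKO livers the levels were 34.8 to 70.8 CPM, median 45.7, at 0 h, 43.4, 54.1, 65.05, 66.03 and 72.2 CPM at 6 h and 10.3 to 22.4 CPM, median 17.8, at 24 h. All 24 h livers of either genotype lay below all livers of that genotype at 0 h and at 6 h. From 6 h to 24 h the fall was to 18.9% in WT (log2 fold change -2.40, SE 0.34, adjusted p = 1.55e-05) and to 28.8% in SIRT1intKO livers (log2 fold change -1.80, SE 0.28, adjusted p = 2.66e-05). Against 0 h it was -1.97 (SE 0.33, adjusted p = 4.90e-05) and -1.48 (SE 0.27, adjusted p = 3.71e-05), and every one of these calls held with each library left out in turn.

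Between 6 h and 24 h, Acacb was the only member called lower in WT livers (1 of 10, all genes 2.72%), and Acacb, Thrsp and Scd1 were called lower in SIRT1intKO livers (3 of 10, all genes 3.91%). Srebf1 in WT livers was the only member called higher (1 of 10, all genes 4.44%).

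Fasn encodes fatty acid synthase, the multifunctional enzyme that builds palmitate. WT livers held 108 to 229 CPM, median 135, at 0 h and 43.4 to 106 CPM, median 64.1, at 6 h, with no overlap (log2 fold change -1.12, SE 0.35, adjusted p = 0.0125). At 24 h the WT livers held 65.7, 69.1, 158 and 264 CPM. That is a low and a high pair once more, and the pair low in Fasn was the pair high in Mlxipl. SIRT1intKO livers held 111 to 287 CPM, median 133, at 0 h, 63.7, 86.97, 92.8, 139.9 and 256 CPM at 6 h and 61.9 to 246 CPM, median 180.4, at 24 h, and passed no test against 0 h (6 h -0.30, 95% interval -1.04 to 0.45, and 24 h 0.24, 95% interval -0.45 to 0.92). Without the 3 libraries with Adipoq the 6 h value was 0.02. The rise from 6 h to 24 h in WT livers, 0.99, missed the threshold (adjusted p = 0.0737) and passed it without WT 24 h replicate 3 (0.0248), WT 24 h replicate 4 (0.0314) or WT 6 h replicate 1 (0.0436). Without the 3 livers with low cholangiocyte markers it was 1.61 (adjusted p = 0.00133).

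Elovl6 encodes the elongase that extends palmitate to stearate. It passed no test at 6 h in either genotype. WT livers held 26.6 to 52.7 CPM, median 43.8, at 0 h and 22.5 to 62.9 CPM, median 38.3, at 6 h. At 24 h they held 10.3, 20.1, 24.8 and 34.2 CPM, lower than at 0 h with some overlap (log2 fold change -0.85, SE 0.31, adjusted p = 0.0318), a difference that missed the threshold without WT 24 h replicate 2 (-0.61, adjusted p = 0.169), the liver with the lowest value. It also missed the threshold without any one of WT 24 h replicate 4 and WT 0 h replicates 1, 2 and 4 (adjusted p of 0.0508 to 0.064), and without the 3 livers with low cholangiocyte markers (0.0653). In SIRT1intKO livers the gene measured 31.4 to 60.8 CPM, median 37.9, at 0 h, 29.6, 39.6, 43.8, 53.2 and 55.5 CPM at 6 h and 20.1 to 65.2 CPM, median 49.9, at 24 h. The change from 0 h to 24 h there was 0.22 (95% interval -0.30 to 0.75).

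Scd1 encodes stearoyl-CoA desaturase, which makes oleate and palmitoleate and was by far the most abundant member. Its spread at 0 h and 6 h was wide, with 1760.5 to 6413 CPM, median 2617, in WT livers at 0 h and 781 to 4033 CPM, median 1703, at 6 h (log2 fold change -0.79, SE 0.42, adjusted p = 0.14). That difference passed the threshold without WT 6 h replicate 2 (-1.15, adjusted p = 0.0384). WT livers at 24 h held 887, 895, 1039 and 1731 CPM, all below 0 h (log2 fold change -1.59, SE 0.50, adjusted p = 0.0133). SIRT1intKO livers held 1276 to 2613 CPM, median 1895, at 0 h, 534, 1044, 1848, 2829 and 3805 CPM at 6 h and 401 to 1469 CPM, median 1051, at 24 h. The fall at 24 h (log2 fold change -1.11, SE 0.40, adjusted p = 0.0233) stood near the threshold: it had an adjusted p of 0.0583 without SIRT1intKO 24 h replicate 6 and 0.0527 without SIRT1intKO 0 h replicate 3. In WT livers the call was lost without WT 24 h replicate 1 (adjusted p = 0.0537). From 6 h to 24 h Scd1 fell in SIRT1intKO livers (log2 fold change -1.17, SE 0.42, adjusted p = 0.0366), and this call was lost without any one of 2 livers at 6 h (replicates 4 and 5) and 4 at 24 h (replicates 2, 5, 6 and 7), with adjusted p of 0.0501 to 0.188. It was also lost without the 3 livers with low cholangiocyte markers (-1.07, adjusted p = 0.0655) and without the 3 libraries with Adipoq (-1.36, adjusted p = 0.0655). Without the 3 livers with low cholangiocyte markers, the adjusted p against 0 h was 0.0892 in WT and 0.0502 in SIRT1intKO livers.

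Me1 encodes cytosolic malic enzyme, a source of NADPH. It passed no test in any of the 12 comparisons. Its group medians lay between 61.0 and 92.6 CPM.

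Thrsp encodes Spot 14, a small nuclear and cytosolic protein tied to lipogenic tissues and thyroid hormone. In SIRT1intKO livers it measured 119 to 279.9 CPM, median 159, at 0 h, 34.95, 57.9, 68.5, 169 and 243 CPM at 6 h and 13.2 to 46.00 CPM, median 25.9, at 24 h. All 24 h livers lay below all 0 h livers (log2 fold change -2.54, SE 0.55, adjusted p = 0.000365), and most of the fall came after 6 h (log2 fold change -1.93, SE 0.56, adjusted p = 0.0111), a call lost without SIRT1intKO 6 h replicate 3 (adjusted p = 0.0584). WT livers held 98.2 to 318 CPM, median 121, at 0 h and 18.5 to 133 CPM, median 60.04, at 6 h (log2 fold change -1.31, SE 0.56, adjusted p = 0.0652). That difference passed the threshold without WT 6 h replicate 6 (0.0284), WT 24 h replicate 2 (0.012) or WT 24 h replicate 3 (0.044), and without the 3 livers with low cholangiocyte markers (0.0324). At 24 h they held 14.3, 22.2, 26.99 and 302 CPM. A single liver, WT replicate 2, lay within the range of 0 h, and the next highest held 26.99 CPM. With it the change from 0 h was -0.80 (adjusted p = 0.342), and without it -2.91 (adjusted p = 0.00081). Without the 3 livers with low cholangiocyte markers, which keeps it, the value was 0.08 (adjusted p = 0.929).

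Between genotypes the question is whether loss of intestinal SIRT1 changed the program in the liver. At 0 h and at 6 h edgeR called 0 of the 10 genes, beside 0% of all genes at each time. At an unadjusted p under 0.05 there were 0 members at 0 h and 1 at 6 h, beside 1.07% and 6.52% of all genes at that threshold, and DESeq2 called 0 members at both (6 and 9 of all genes). The member at 6 h was Fasn, with 0.87 (95% interval 0.12 to 1.61, adjusted p = 0.745). The largest difference at 0 h was that of Scd1, -0.84 (95% interval -1.70 to 0.02), an interval wide enough that the depth of replication, 6 livers a group, limits what the test can show.

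At 24 h Elovl6 was higher in SIRT1intKO than in WT livers (log2 fold change 1.09, SE 0.30, adjusted p = 0.0308), 1 of 10 members beside 1.38% of all genes called higher. Srebf1 was lower, at 57.5% of WT (log2 fold change -0.80, SE 0.22, adjusted p = 0.0316), so 2 of 10 members passed an adjusted p under 0.05 beside 5.81% of all genes. Mlxipl (-1.10, 95% interval -1.86 to -0.33, adjusted p = 0.0752) and Thrsp (-1.60, 95% interval -2.80 to -0.41, adjusted p = 0.0933) missed the threshold. The values of every member overlapped between genotypes at this time, and of all genes tested only 1.97% did not overlap. Fitted on the 11 livers of 24 h alone, the adjusted p was 0.268 for Elovl6 and 0.259 for Srebf1. Elovl6 lost its call without any one of WT replicates 2 (0.104) and 4 (0.0702) and SIRT1intKO replicates 2 (0.0629), 6 (0.0567) and 7 (0.053). Srebf1 missed the threshold on adjusted p without any one of WT replicates 2, 3 and 4 and SIRT1intKO replicates 2, 3 and 6 (0.0504 to 0.0882), and without the 3 libraries with Adipoq (0.061).

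Thrsp at 24 h turned on WT replicate 2. With that liver the log2 difference, SIRT1intKO against WT, was -1.60, and without it 0.50 (adjusted p = 0.589). The negative value passed the threshold without WT replicate 1 (adjusted p = 0.0415) or WT replicate 3 (0.0365). For Mlxipl the value ran from -0.74 to -1.59 with single libraries left out, and it passed the threshold without SIRT1intKO replicate 5 (adjusted p = 0.00177) or WT replicate 1 (0.0179).

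The 3 livers with low cholangiocyte markers at 24 h were the 3 highest of the 11 in Mlxipl, with 159, 183 and 205 CPM against 25.5 to 67.1 CPM in the other 8. SIRT1intKO replicate 5 was among them, and it was the highest of its group in Srebf1, with 55.6 CPM, and the lowest in Fasn (61.9 CPM), Elovl6 (20.1 CPM) and Acaca (32.1 CPM). WT replicates 3 and 4 had the highest Srebf1 (73.0 and 72.7 CPM) and the lowest Fasn (65.7 and 69.1 CPM) of the WT livers. Fasn was 158 to 264 CPM in the other 8 livers, of both genotypes. Acacb followed Mlxipl within the WT livers: replicates 3 and 4 held 20.2 and 21.9 CPM, replicates 1 and 2 held 5.53 and 6.23 CPM, and SIRT1intKO livers held 10.3 to 22.4 CPM. These 3 livers made up 2 of 4 WT livers and 1 of 7 SIRT1intKO livers. They were also the lowest of the 11 in summed neutrophil markers, with 5.28 to 18.54 CPM against 52.6 to 944 CPM in the other 8. Among the labelled samples their library names follow one another in the number series. A difference in handling of these livers therefore cannot be told apart from a biological one. In a choice made after seeing the data, all 3 were left out: the genotype difference at 24 h was then -0.38 for Mlxipl (adjusted p = 0.417), -0.62 for Srebf1 (0.1), 1.25 for Elovl6 (0.0235), 1.57 for Acacb (0.00305) and -2.36 for Thrsp (0.00948), with 2 WT livers left. Thrsp in the remaining WT pair again rests on replicate 2.

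**Figure D3:**
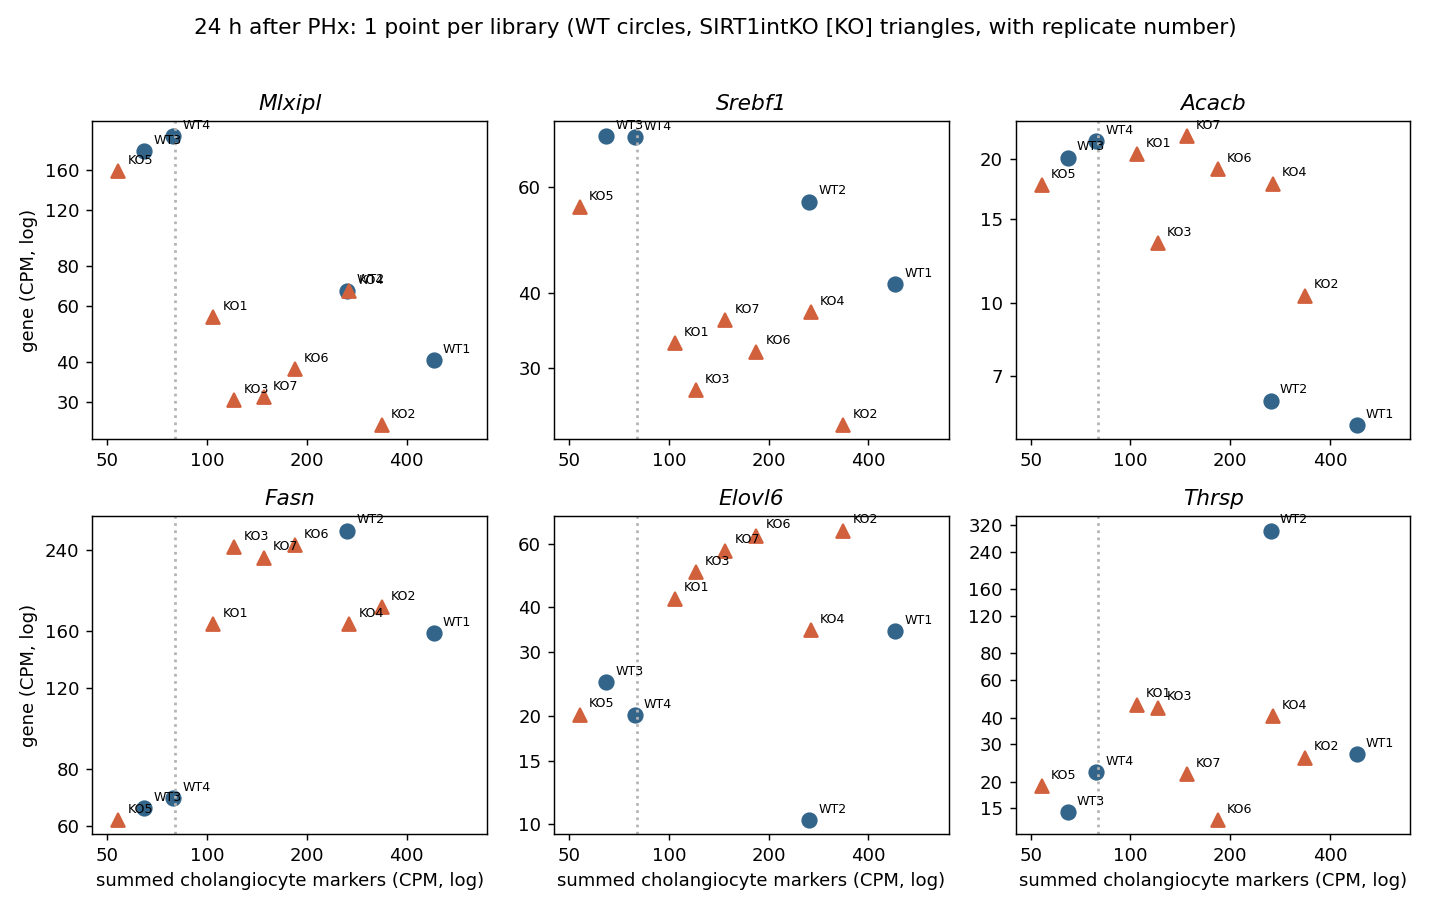
Level of 6 lipogenic genes (CPM, log scale) against the sum of 6 cholangiocyte markers (CPM, log scale) in the 11 livers taken 24 h after PHx, with circles for WT and triangles for SIRT1intKO livers, labelled by replicate. The 3 livers left of the dotted line at 80 CPM are the highest in Mlxipl and the lowest in Fasn.

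Whether the response to PHx differed between genotypes was tested with interaction terms, and edgeR called 0 members in each. Of all genes, 0% were called for 6 h against 0 h, 0.00668% for 24 h against 0 h and 0.334% for 24 h against 6 h. At an unadjusted p under 0.05 there were 0 members for 6 h against 0 h, beside 3.05% of all genes at the same threshold. For 24 h against 0 h there were 3, Elovl6, Srebf1 and Thrsp (all genes, 12.7%), and for 24 h against 6 h there were 4, the same 3 and Mlxipl (all genes, 19.7%). DESeq2 called 0 members in the 3 terms. The lowest adjusted p was that of Srebf1 from 6 h to 24 h (-0.99, 95% interval -1.63 to -0.35, adjusted p = 0.0969), which is the difference between its rise in WT livers and its change in SIRT1intKO livers. Its adjusted p became 0.0288 without SIRT1intKO 24 h replicate 5, and that of Mlxipl 0.019. For Mlxipl the same term was -1.34 (adjusted p = 0.162), for Thrsp -2.45 (0.112) and for Elovl6 0.94 (0.197). The Thrsp term was -0.34 without WT 24 h replicate 2 (adjusted p = 0.818), -2.84 without WT 24 h replicate 3 (0.049) and -3.19 without the 3 livers with low cholangiocyte markers (0.00908). Acly and Fasn were called at 6 h in WT livers alone, and their terms for 6 h against 0 h were 0.60 (95% interval -0.09 to 1.30, adjusted p = 1) and 0.82 (95% interval -0.20 to 1.85, adjusted p = 1), so a difference between genotypes was not shown.

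Across the 34 livers the 10 genes did not form a single block. Pearson's r of log2 CPM over the 45 pairs ran from -0.34 to 0.83, with a median of 0.25, and after group means were subtracted from -0.47 to 0.82, with a median of 0.22 and 33 pairs above 0. The closest pair was Acaca and Fasn, with 0.83 over all livers and 0.82 within groups. Srebf1 and Mlxipl had 0.81 over all livers, where both fell after PHx, and 0.51 within groups. Mlxipl and Fasn had -0.07 over all livers and -0.47 within groups, the lowest of the 45. Me1 and Srebf1 were the lowest pair over all livers (-0.34). These values describe libraries that share depth and groups, and they carry no test.

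**Figure D4:**
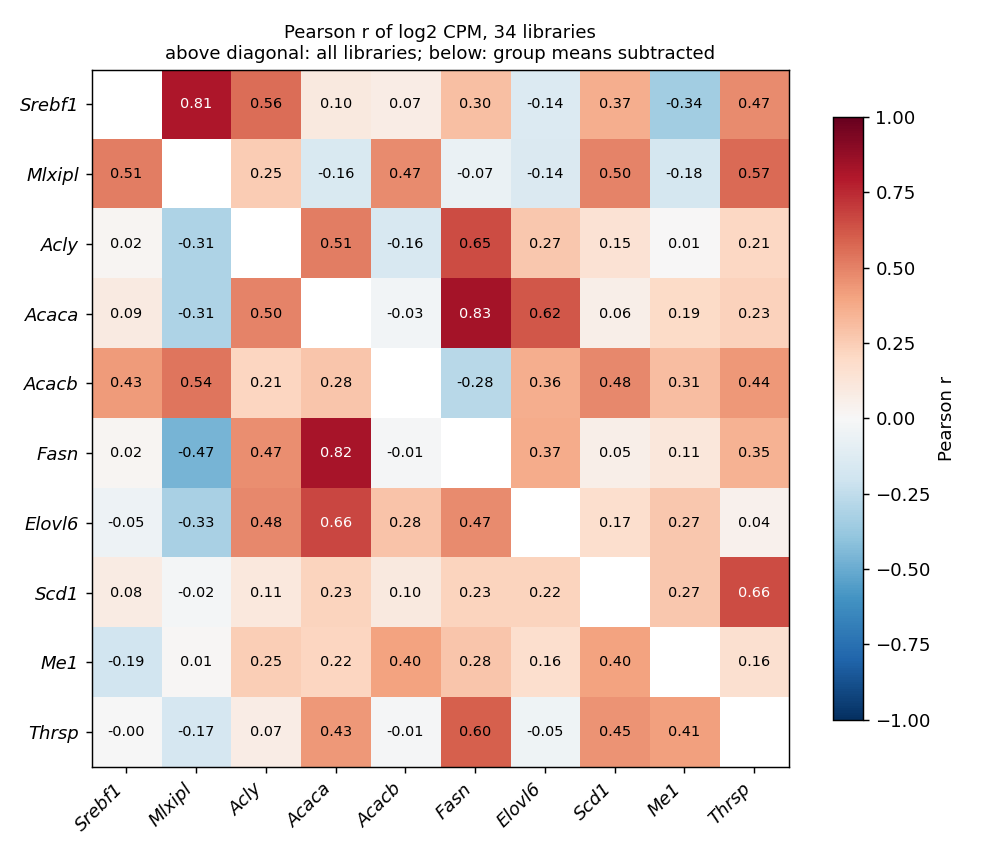
Pearson's r between pairs of lipogenic genes over 34 livers, above the diagonal from log2 CPM as measured and below it after subtracting each group's mean. Acaca and Fasn form the closest pair on both sides, and Mlxipl is negative with Fasn within groups.

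By likeness of pattern over the 34 livers, among 9107 other genes with a mean of at least 5 CPM, genes among the nearest to Mlxipl were Nlrp6 (r = 0.95), Exosc5 (0.95), Cyp2d13 (0.95) and Igfals (0.95). The nearest to Srebf1 were Ppard, a nuclear receptor of fatty acid metabolism (0.93), Rbbp4 (0.88), Mreg (0.88), Gjb1 (0.88) and Dexi (0.88). Within groups these values were 0.78 to 0.81 for the genes named for Mlxipl and 0.30 to 0.65 for those near Srebf1.

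The other genes of the pathway were taken as 5 lists. Of 12 genes that supply substrate and NADPH, all 12 had a log2 fold change below 0 at 6 h in both genotypes, with 4 called lower in WT and 3 in SIRT1intKO livers (all genes, 8.4% and 8.7%) and medians of -0.68 and -0.46. Pklr, which encodes liver pyruvate kinase, fell by 1.31 and 1.34 on the log2 scale at 6 h and by 1.83 and 1.82 at 24 h, all called. Acss2, which makes acetyl-CoA from acetate, fell by 2.06 and 1.55 at 6 h. At 24 h Pgd, an NADPH-forming enzyme of the pentose phosphate pathway, rose by 1.02 (SE 0.26, adjusted p = 0.00289) in WT and 1.32 (SE 0.23, adjusted p = 2.56e-05) in SIRT1intKO livers. It was the 1 member of its list called higher in each genotype at 24 h, beside 8.32% and 11.9% of all genes, and 4 and 3 were called lower, beside 7.4% and 11.1%.

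Among 15 regulators of lipogenesis the medians ran from -0.13 to -0.01 in the 4 comparisons against 0 h. At 6 h 2 were called lower in each genotype (all genes, 8.4% and 8.7%) and 0 and 1 higher (7.17% and 7.86%). Those lower were Insig1, a retainer of SREBP in the endoplasmic reticulum and itself an SREBP target, with -2.04 (SE 0.38, adjusted p = 8.22e-05) in WT and -1.16 (SE 0.39, adjusted p = 0.0186) in SIRT1intKO livers, and Mid1ip1, a paralog of Thrsp, with -1.75 and -1.75. Insig2 was the one higher in SIRT1intKO livers, with 1.26 (SE 0.35, adjusted p = 0.00523) at 6 h and 1.54 (SE 0.33, adjusted p = 0.000336) at 24 h. At 24 h 1 regulator was called higher and 1 lower in SIRT1intKO livers (all genes, 11.9% and 11.1%). In WT livers 0 were called in either direction at 24 h (8.32% and 7.4%). Srebf2, the paralog of Srebf1 for cholesterol synthesis, rose by less than 2-fold at 24 h (0.70 and 0.77).

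Of 10 genes of elongation and desaturation, Elovl3 was called lower in all 4 comparisons (-4.27 and -4.13 at 6 h, -2.80 and -4.33 at 24 h), and Hacd3 was called higher at 6 h in both genotypes (1.23 and 1.18). No other gene of that list was called against 0 h, so each of these counts was 1 of 10. Of all genes, 8.4% in WT and 8.7% in SIRT1intKO livers were called lower at 6 h, and 7.4% and 11.1% at 24 h. The shares called higher at 6 h were 7.17% and 7.86%. Of 10 genes of triglyceride assembly, 1 was called lower at 6 h in WT livers (all genes, 8.4%), Gpam with -1.04 (SE 0.23, adjusted p = 0.000548), and 0 in SIRT1intKO livers. At 24 h Lpin1, a phosphatidate phosphatase, was called lower in both (-1.98 and -2.09), Lpin2 in WT livers (-1.10), and Pnpla3 higher in SIRT1intKO livers (2.71, SE 0.82, adjusted p = 0.00686). That is 2 and 1 of 10 called lower (all genes, 7.4% and 11.1%) and 0 and 1 called higher (8.32% and 11.9%).

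Of 10 genes of the insulin and nutrient response, 2 were called higher and 2 lower at 6 h in each genotype (all genes, 7.17% and 8.4% in WT and 7.86% and 8.7% in SIRT1intKO livers). Igfbp1 (1.81 and 1.57) and the fasting hormone gene Fgf21 (3.59 and 2.93) rose, and the insulin receptor substrate gene Irs1 (-2.01 and -1.59) and Angptl8, an insulin-induced gene (-2.49 and -3.01), fell. At 24 h 1 was called higher and 3 lower in WT livers, and 2 and 5 in SIRT1intKO livers, with list medians of -0.40 and -0.87. Of all genes, 8.32% were called higher and 7.4% lower in WT livers at 24 h, and 11.9% and 11.1% in SIRT1intKO livers.

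**Figure D5:**
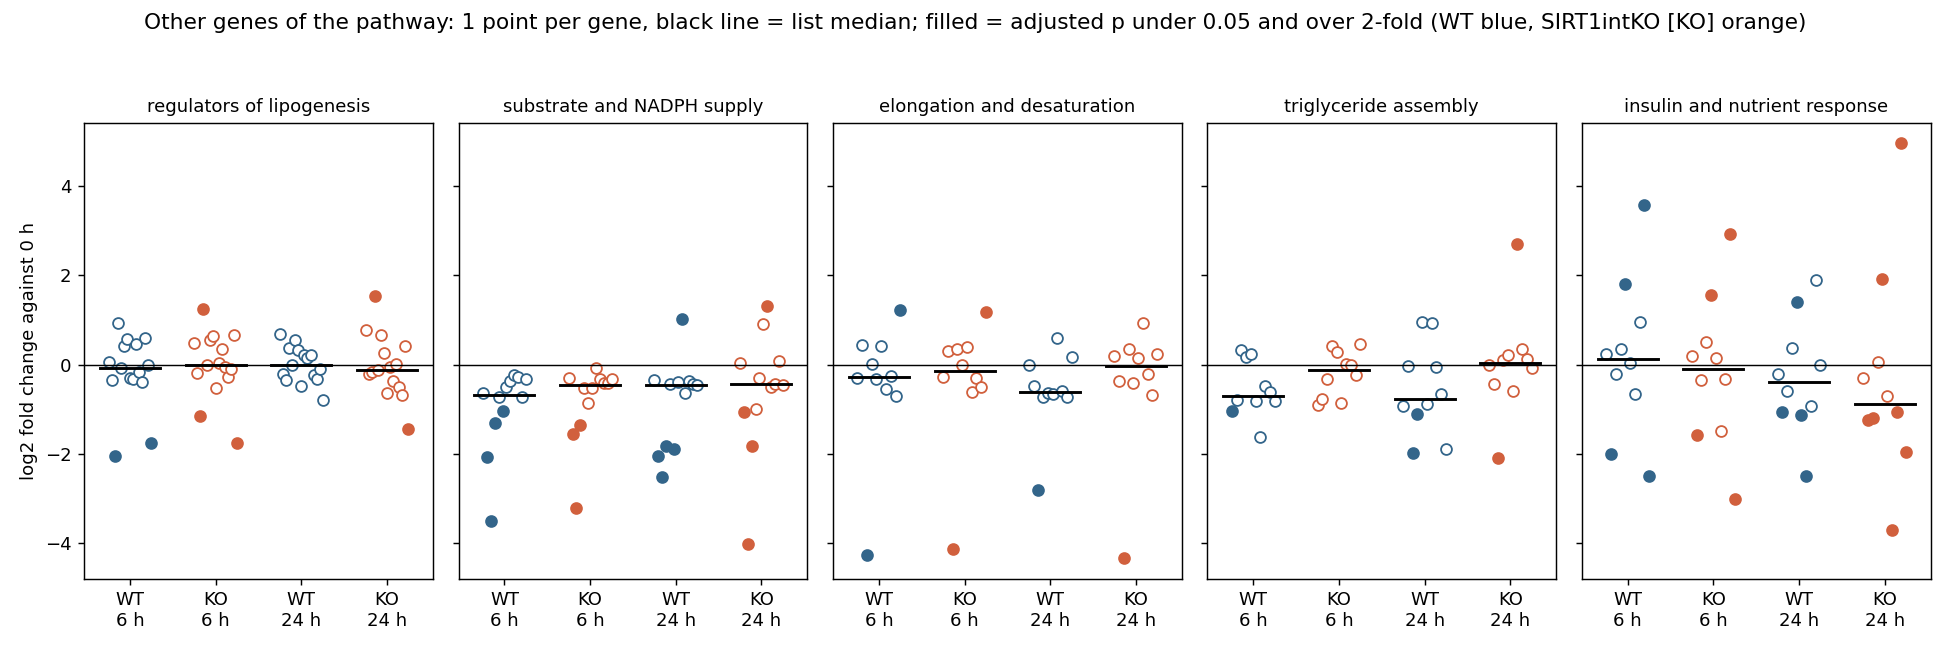
Log2 fold changes against 0 h of the genes in the 5 pathway lists, in WT and SIRT1intKO livers at 6 h and 24 h, with 1 point per gene, filled where called, and black lines at list medians. The substrate and NADPH list lies below 0 at 6 h in both genotypes.

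Between genotypes at 24 h, 4 of the 57 genes of these lists were called, all higher in SIRT1intKO livers, beside 1.38% of all genes called higher: Slc2a2, the glucose transporter of hepatocytes (1.64, SE 0.48, adjusted p = 0.0385), G6pdx, the first enzyme of the pentose phosphate pathway (1.19, SE 0.28, adjusted p = 0.0146), Lpin2 (1.04, SE 0.31, adjusted p = 0.0416) and Fgf21 (2.85, SE 0.80, adjusted p = 0.0329). Dgat1 (-0.86, SE 0.24, adjusted p = 0.0295) and Agpat2 (-0.39, SE 0.10, adjusted p = 0.0226) were lower by less than 2-fold. These values rest on the same 4 WT livers as those of the members, and they were not examined with libraries left out or on the 24 h livers alone. Among the members, the edgeR adjusted p on the 24 h livers alone rose to 0.268 for Elovl6 and 0.259 for Srebf1.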

How the data were processed

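RNA from 34 mouse livers was measured by stranded, polyA-selected RNA sequencing. The authors deposited a table of expected counts per gene, made with STAR and Salmon on GRCm39 as named in their processing notes, in which 4.97% of values were not whole, and these were rounded. Of 35 columns, 1 matched no labelled sample and was not used. The table's gene names lack the letter x in places, and 1255 symbols were restored from gene identifiers.

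Counts were tested with edgeR 4.0.16 (R 4.3.3) by the quasi-likelihood F-test, with TMM scaling, edgeR's filter by group and 1 mean for each of the 6 genotype-by-time groups over all 34 libraries. P-values were adjusted by the Benjamini-Hochberg method over 14980 genes, and the tests were two-sided. The common biological coefficient of variation was 0.302. CPM use TMM-scaled library sizes. Libraries held 14892122 to 23480492 counts (median 16807340), and no 2 libraries of a group agreed within sampling noise. Replicates were labelled as biological.

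All 10 genes are named. Of the pathway lists, genes were named from the 6 with the smallest p per list and comparison, and the 5 most alike genes for Srebf1 and Mlxipl. A gene that this rule also selects is not reported here. The members and lists were chosen with earlier results of these data known. Alternatives were other scalings and filters, DESeq2 1.42.0, a test against a 2-fold change, fits on the compared groups alone or with a replicate block, and each library left out. Their effects were examined for the 10 genes and not for genes of the lists. The scripts were tested on simulated counts. Gene coordinates were used only for RefSeq's promoter windows and for the exon lengths behind CPM per kb. These lengths cover all merged exons of a gene in a GENCODE annotation of GRCm38, while the counts were made on GRCm39.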

Additional observations from a re-analysis of the deposited data

Results flagged for a closer look

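Within each of the 60 sets of values made by 10 genes and 6 groups, the highest and lowest library were compared with the nearest other by Dixon's test, and 10 sets held a library far from the rest. For values with a normal spread, chance flags about 1 set in 20. The test was run on CPM without a log, and all flags but that of Me1 at 6 h were on the high side. The rate by chance for these values was therefore not known, and sets of the same library are not independent.

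At 0 h, Mlxipl stood out in WT replicate 2 with 572.1 CPM (next 362.4) and in SIRT1intKO replicate 5 with 526.8 CPM (next 337.5). WT replicate 1 stood out in Me1 with 137.7 CPM (next 76.71) and in Acacb with 89.14 CPM (next 53.99). SIRT1intKO replicate 2 stood out in Fasn with 287.4 CPM (next 158.5) and in Acaca with 74.87 CPM (next 47.84). At 6 h, SIRT1intKO replicate 1 was low in Me1 with 60.09 CPM (next 91.2). At 24 h, WT replicate 2 held 302.2 CPM of Thrsp (next 26.99), and SIRT1intKO replicate 5 held 158.8 CPM of Mlxipl (next 66.95) and 55.56 CPM of Srebf1 (next 37.19).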

How the results depend on the processing

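With 4 to 7 livers a group, the time comparisons were steadier than those between genotypes. A test against a 2-fold change called 2 members at 6 h in WT and 0 in SIRT1intKO livers, 1 and 2 at 24 h against 0 h, 1 and 1 at 24 h against 6 h, and 0 between genotypes at 24 h. An adjusted p under 0.05 alone gave 5 members for WT at 24 h against 0 h and 2 between genotypes at 24 h. That genotype count was 1 in the report, 2 by DESeq2, 0 on the 24 h livers alone and 0 to 3 with single libraries left out, and 0 to 2 members were then called in the interaction for 24 h against 6 h. Without the 3 livers with low cholangiocyte markers, a choice made after seeing the data, 3 members were called between genotypes at 24 h, and 1 and 2 in the interactions for 24 h against 0 h and against 6 h. The sign then turned for Thrsp in WT livers at 24 h against 0 h (0.084) and Mlxipl at 24 h against 6 h (-0.669), as it did for Fasn in SIRT1intKO livers at 6 h without the libraries with Adipoq (0.017). With single libraries left out, it turned for Acly in SIRT1intKO livers at 24 h against 0 h (-0.25 to 0.128), Srebf1 there at 24 h against 6 h (-0.014 to 0.255), Thrsp between genotypes at 24 h (-2 to 0.503) and Thrsp in the interaction for 24 h against 0 h (-2.144 to 0.36). The cause was not tested.

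Replicate numbers were shared between groups, but same-numbered livers did not deviate together (76 pairs, median r -0.004, 6 over 0.1), so the numbers do not pair the livers. With the replicate number as a block, 0 members were called between genotypes at 24 h. The block moved the adjusted p to 0.0899 for Elovl6 and 0.0983 for Srebf1 in that comparison, and to 0.058 and 0.0716 for Scd1 in SIRT1intKO livers at 24 h against 0 h and 6 h, and it changed no other call.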
